A study of Mus musculus with 10 samples.

Results

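Transcript levels of a set of redox genes were described in plasma cells of mouse bone marrow. The set was given by name and held 10 genes, namely the peroxiredoxin genes Prdx1, Prdx2, Prdx3, Prdx5 and Prdx6, the thioredoxin genes Txn1 and Txnrd1, the glutathione synthesis genes Gclc and Gclm, and the heme oxygenase gene Hmox1. A gene counted as measured where a probe set carried its symbol and no other, and this held for 7 of the 10, out of 22180 genes measured on the arrays. Each of the 7 had 1 probe set. Prdx1 stood only on 3 probe sets that carry other symbols too, and Prdx1, Prdx5 and Prdx6 were not analysed here.

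The arrays held RNA from plasma cells of 5 mice given rapamycin, an inhibitor of the growth kinase complex mTORC1, and of 5 untreated mice. All mice were of the strain B6.BLIMP1 +/GFP, in which an allele of the gene for Blimp1, the factor that turns B cells into plasma cells, carries a green fluorescent reporter. Cells of both groups had been sorted as Blimp1-positive and as negative for B220, a form of CD45 that plasma cells lose. The sources used here give no dose, length of treatment or age of the mice.

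Cells use these genes against peroxides and for thiol balance. Peroxiredoxins reduce hydrogen peroxide and are returned to their active form by thioredoxin, which thioredoxin reductase recharges with electrons from NADPH. Glutathione, the main small thiol of the cell, is made in a first, rate-limiting step by glutamate-cysteine ligase, of which Gclc encodes the catalytic and Gclm the modifier subunit. Hmox1 encodes the inducible enzyme that opens the heme ring. Many of these genes are targets of the transcription factor NRF2, and plasma cells carry an oxidative load from forming the disulfide bonds of antibodies.

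Values are on the log2 scale as deposited, so a difference of 1 is a doubling, and the levels of redox genes were not ranked against each other, since probe sets differ in brightness for equal amounts of RNA. Array medians lay between 4.92 and 4.99. The first principal component across genes carried 19.0% of the variance. Rapamycin replicate 4 stood apart on it, with a score of 22.3 against 4.17 to 8.85 for the other rapamycin arrays and -15.4 to -1.16 for the untreated arrays. The plasma cell genes Jchain, Prdm1 and Sdc1 were at 13.45, 10.12 and 10.07 in rapamycin and 13.40, 9.71 and 10.01 in untreated arrays. Prdm1, which encodes Blimp1, was higher by 0.41 (adjusted p = 0.117 in limma, described below), with all 5 rapamycin arrays above all untreated arrays. Of 12 plasma cell markers, 10 differences were above 0, against 11769 of all 22180 genes, and 0 passed the test (0.153% of all genes). For 2 the groups did not overlap, both higher (1.48% of all genes). The cause was not tested. The rapamycin arrays were high in Xist (8.87 to 9.62, against 3.75 to 4.00 in untreated arrays), and the untreated arrays in the Y-linked Eif2s3y (3.58 to 4.06 in rapamycin arrays, against 7.41 to 8.68 in untreated arrays), Kdm5d and Uty. The sex of the mice and rapamycin therefore cannot be told apart in any difference given here.

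None of the 7 measured redox genes passed the test for a difference between rapamycin and untreated plasma cells. In limma, with Benjamini-Hochberg adjustment over all genes and a threshold of 0.05, 0 of the 7 rose and 0 fell, where 0.126% of all genes rose and 0.0271% fell. At an unadjusted p under 0.05, 0 were higher and 1, Hmox1, was lower, where 6.13% of all genes were higher and 3.26% lower. The groups overlapped for all 7, and 2.06% of all genes showed no overlap. The median log2 difference over the 7 genes, rapamycin minus untreated, was -0.02, against 0.01 over all genes. Leaving out Hmox1, the 95% intervals reached a change of at most 23.0%, for Txnrd1, and of -20.5%, for Gclc. In these bulk samples fewer cells of a type and less RNA per cell cannot be told apart.

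**Figure D1:**
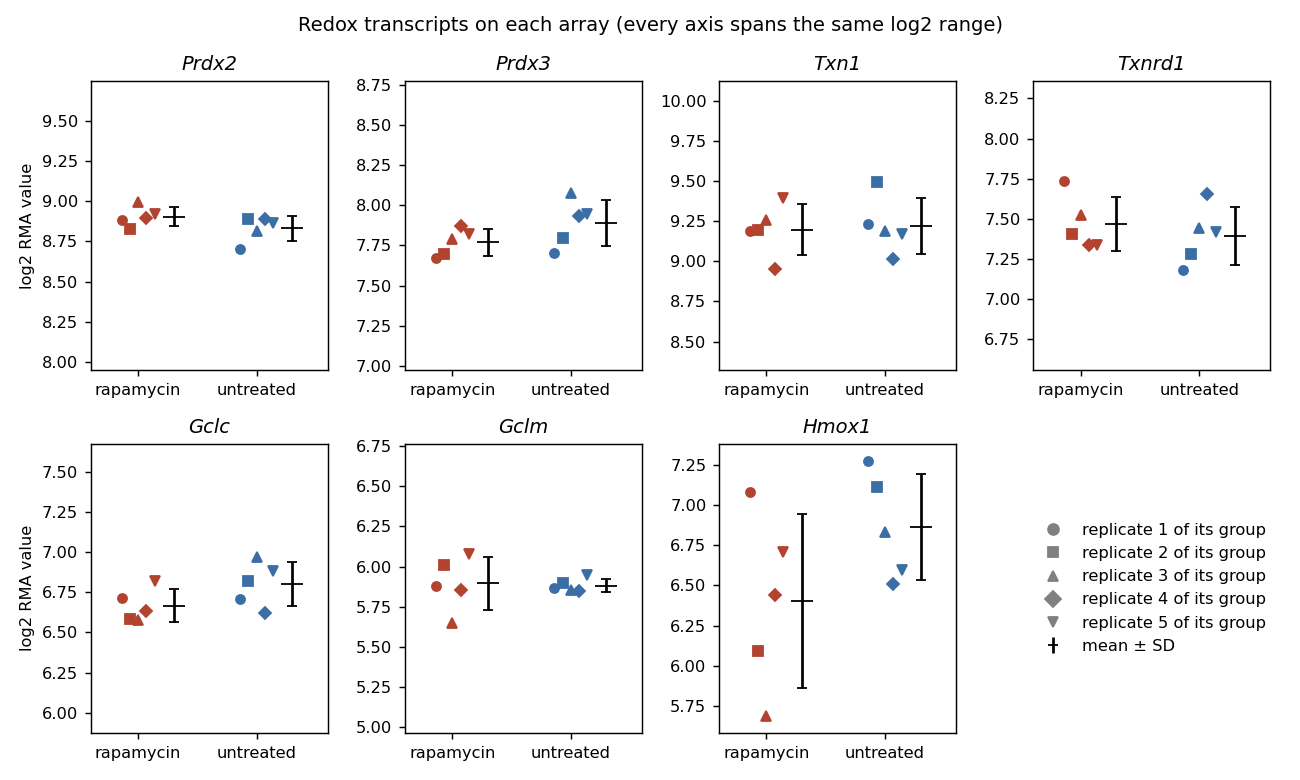
Log2 RMA value (vertical axis) of each of the 7 measured redox genes on the 5 rapamycin arrays, left, and the 5 untreated arrays, right, with a marker for each replicate number and the mean ± SD beside the points. The groups overlap in every panel, and Hmox1 has the widest spread, 5.69 to 7.08 in rapamycin and 6.51 to 7.28 in untreated arrays.

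Among the peroxiredoxin genes, Prdx2 encodes an abundant cytosolic enzyme, best known from red cells, and Prdx3 the enzyme of mitochondria. Prdx2 was at 8.89, 8.83, 8.996, 8.89 and 8.92 in rapamycin replicates 1 to 5, against 8.70, 8.89, 8.81, 8.89 and 8.86 in untreated replicates 1 to 5. Rapamycin arrays lay above the untreated median in 4 of 5 cases, and untreated replicate 1 was the lowest of all 10 arrays. The means were 8.90 ± 0.06 with rapamycin and 8.83 ± 0.08 untreated (SD, n = 5 each), a log2 difference of 0.07 (95% interval -0.08 to 0.23) with an adjusted p of 0.833 in limma. The SD of Prdx2 over all 10 arrays, 0.08, was among the smallest, at percentile 4.09 of all genes.

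Prdx3 was at 7.67, 7.70, 7.79, 7.87 and 7.82 in rapamycin arrays, against 7.70, 7.79, 8.07, 7.93 and 7.95 in untreated arrays. All 5 rapamycin arrays were below the untreated median of 7.93, but only 2 were below the lowest untreated array. The means were 7.77 ± 0.08 with rapamycin and 7.89 ± 0.14 untreated (SD, n = 5 each). The log2 difference of -0.12 (95% interval -0.31 to 0.07, adjusted p = 0.752 in limma) was in size above the SD of the rapamycin arrays and below that of the untreated arrays.

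Txn1 encodes cytosolic thioredoxin, and Txnrd1 the selenium-containing reductase that recharges it. Txn1 was at 9.19, 9.20, 9.26, 8.95 and 9.39 in rapamycin arrays, against 9.23, 9.49, 9.19, 9.01 and 9.17 in untreated arrays. The lowest value was that of rapamycin replicate 4 and the highest that of untreated replicate 2, with the remaining arrays intermixed. Means were 9.20 ± 0.16 with rapamycin and 9.22 ± 0.17 untreated, and the log2 difference of -0.02 (95% interval -0.23 to 0.19, adjusted p = 0.976 in limma) turned to 0.04 without rapamycin replicate 4 and to 0.05 without untreated replicate 2. Txnrd1 was at 7.74, 7.40, 7.53, 7.34 and 7.34 in rapamycin arrays, against 7.18, 7.28, 7.44, 7.66 and 7.42 in untreated arrays. Both groups held an array well above its others, rapamycin replicate 1 and untreated replicate 4. The log2 difference was 0.07 (95% interval -0.16 to 0.30, adjusted p = 0.906 in limma), and thus within the SD of either group, 0.17 with rapamycin and 0.18 untreated. It was 0.0045 without rapamycin replicate 1, 0.017 without untreated replicate 1 and 0.14 without untreated replicate 4.

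Gclc was at 6.71, 6.59, 6.58, 6.63 and 6.82 in rapamycin arrays, against 6.71, 6.82, 6.97, 6.62 and 6.88 in untreated arrays. Of the rapamycin arrays 4 lay below the untreated median and 2 below the lowest untreated array. The means were 6.67 ± 0.10 with rapamycin and 6.80 ± 0.14 untreated (SD, n = 5 each), a log2 difference of -0.14 (95% interval -0.33 to 0.06) with an adjusted p of 0.719 in limma. Gclm, the other subunit of the same enzyme, was at 5.88, 6.01, 5.65, 5.86 and 6.08 in rapamycin arrays, against 5.87, 5.90, 5.85, 5.85 and 5.95 in untreated arrays. The untreated arrays lay close together, with an SD of 0.04, and the rapamycin arrays lay on both sides of them, with an SD of 0.17. The log2 difference of Gclm was 0.01 (95% interval -0.18 to 0.21, adjusted p = 0.983 in limma), and its sign turned without rapamycin replicate 2 (-0.02) or 5 (-0.03), and with a second quantile normalization (-0.01). The difference in spread between the groups was not tested.

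The promoters of Gclm and Txnrd1 are shown because theirs were the ones, of 5 measured genes with a promoter window (Gclm, Txn1, Prdx2, Txnrd1 and Prdx3), that held the core letters of the antioxidant response element, the DNA element known to be bound by NRF2. The search was for TGACNNNGC on both strands, in windows of 250 bases before to 50 bases after each annotated gene start, from RefSeq on build GRCm38.p6. Of all 32851 windows searched, 12.4% held a match, and of the 7 windows of these 5 genes 2 did. Hmox1 and Gclc had no window under their symbols. The match, in capitals and on the strand opposite to the gene in both, began 134 bases before the start of Gclm (chr3:122245307-122245606, plus strand) and 92 bases before a start of Txnrd1 (chr10:82858956-82859255, plus strand). Txnrd1 has 3 windows, and the other 2 held no match. As described above, neither gene differed between the groups beyond its spread, and a match describes the letters only.
Gclm: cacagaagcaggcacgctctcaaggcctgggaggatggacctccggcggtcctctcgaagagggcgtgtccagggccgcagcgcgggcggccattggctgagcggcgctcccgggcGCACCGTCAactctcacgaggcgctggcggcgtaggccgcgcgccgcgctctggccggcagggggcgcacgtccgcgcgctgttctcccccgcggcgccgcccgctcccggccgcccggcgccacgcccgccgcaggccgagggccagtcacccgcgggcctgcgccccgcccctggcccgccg
Txnrd1: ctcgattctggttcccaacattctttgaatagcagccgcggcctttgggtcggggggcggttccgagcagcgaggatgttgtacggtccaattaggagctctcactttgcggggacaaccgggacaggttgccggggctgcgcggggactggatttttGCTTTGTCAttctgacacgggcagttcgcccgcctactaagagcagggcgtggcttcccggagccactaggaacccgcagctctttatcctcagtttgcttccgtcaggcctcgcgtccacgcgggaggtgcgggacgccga

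Hmox1 was the member that varied most. It was at 7.08, 6.09, 5.69, 6.44 and 6.71 in rapamycin replicates 1 to 5, against 7.28, 7.12, 6.83, 6.51 and 6.60 in untreated replicates 1 to 5. Rapamycin replicates 2, 3 and 4 were below all untreated arrays, while rapamycin replicate 1 was above 3 of the untreated arrays. The means were 6.40 ± 0.54 with rapamycin and 6.87 ± 0.33 untreated (SD, n = 5 each). The log2 difference was -0.46 (SE 0.21, 95% interval -0.92 to -0.01), a change of -27.4% on a linear scale, with an unadjusted p of 0.0469 in limma and an adjusted p of 0.524. It did not pass the test, and it was -0.28 without rapamycin replicate 3 (adjusted p = 0.768) and -0.63 without rapamycin replicate 1 (adjusted p = 0.285 in limma). Over all 10 arrays its values spanned 3.01-fold, and its SD of 0.49 was at percentile 99.6 of all genes. The other members spanned 1.23-fold (Prdx2) to 1.47-fold (Txnrd1).

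**Figure D2:**
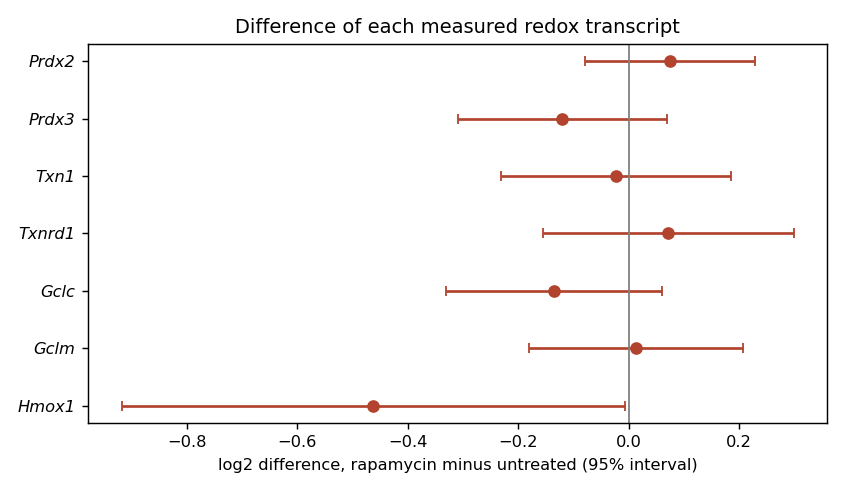
Log2 difference, rapamycin minus untreated (horizontal axis), of each measured redox gene, with its 95% interval from limma, not adjusted for the number of genes tested. The intervals of 6 genes span 0, and that of Hmox1, from -0.92 to -0.01, is the widest.

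Macrophages, which break down the heme of red cells, are known for high Hmox1, and red cell precursors for high Prdx2, so that markers of both were set beside these values. All 14 macrophage and monocyte markers were measured, 9 with a difference above 0 and 5 below, a median of 0.04. Of the 14, 9 were below the median level of all genes. The mean level of the list was 5.73 to 5.83 over the rapamycin arrays and 5.68 to 5.80 over the untreated arrays. In rapamycin replicates 1 and 3, where Hmox1 was highest and lowest of its group, that mean was 5.73 and 5.79. In untreated replicates 1 and 4, again the highest and lowest in Hmox1 of their group, it was 5.75 and 5.75. With 9 of 14 markers below the median level, this mean could miss a change in macrophage share, which was not tested. The list's brightest member, Ly6c2, listed for monocytes, stood far above the rest of the list in places, with a mean of 11.44. It rose by 0.45 (adjusted p = 0.0439 in limma), and which cells gave its signal was not tested. Cd68, a lysosomal membrane protein gene listed for macrophages, went the other way, as Hmox1 did, and which cells gave its signal was not tested. It was at 7.82, 7.84, 7.45, 8.11 and 7.96 in rapamycin arrays, against 8.13, 8.33, 8.11, 8.16 and 8.14 in untreated arrays. Cd68, like Hmox1, was lowest of all 10 arrays in rapamycin replicate 3, and its log2 difference of -0.33 had an unadjusted p of 0.00727 and an adjusted p of 0.291 in limma. No other marker of this list was lowest of the 10 arrays in that replicate, and Cx3cr1 was highest there, at 6.70. Csf1r, at 5.19 with rapamycin and 5.12 untreated, differed by 0.07, and Adgre1, at 3.97 and 3.99, by -0.02. Of 15 erythroid markers, 7 were measured, with 0 past the test, where 0.153% of all genes passed. Differences were above 0 for 4 and below for 3, with a median of 0.13. Of the 7, 6 were below the median level of all genes. The mean level of the 7 was 4.49 to 4.73 over rapamycin and 4.40 to 4.57 over untreated arrays. Their brightest member was the red cell anion exchanger gene Slc4a1, at 5.45 with rapamycin and 5.63 untreated, while the carbonic anhydrase gene Car1 was at 4.82 with rapamycin and 4.52 untreated.

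Neutrophil markers, all 14 measured, had a mean of 6.62 to 7.06 over rapamycin and 6.22 to 6.87 over untreated arrays, with 13 of 14 differences above 0, against 11769 of all 22180 genes, and a median difference of 0.13. In limma 0 passed the test, where 0.153% of all genes passed, and 4 had an unadjusted p under 0.05. All 4 were higher, as were 6.13% of all genes. Their brightest member was Ngp, of neutrophil granules. The part of other cells in the redox values was not tested. Ranges of the remaining lists overlapped between the groups. Below the median level of all genes were 6 of 9 measured eosinophil, basophil and mast cell markers, and 7 of 10 for T and NK cells. For B cells it was 7 of 10, for dendritic cells 5 of 8, and for stroma and megakaryocytes 3 of 10. Means for eosinophils, basophils and mast cells, with Prg2 the brightest of 9 measured, were 5.18 to 5.53 with rapamycin and 5.18 to 5.56 untreated. Prg2, the eosinophil major basic protein gene, itself rose by 0.42 (adjusted p = 0.0473 in limma), with all 5 rapamycin arrays above all untreated arrays. Its mean was 12.72, and which cells gave its signal was not tested. For T and NK cells, with Gzma the brightest, they were 4.74 to 4.90 with rapamycin and 4.68 to 4.83 untreated. B cell markers, led by Cd79b, had means of 5.52 to 5.76 with rapamycin and 5.56 to 5.77 untreated. Means were 5.99 to 6.19 with rapamycin and 6.01 to 6.09 untreated for dendritic cells, led by Bst2, and 5.47 to 5.60 with rapamycin and 5.50 to 5.64 untreated for stroma and megakaryocytes, led by Pecam1.

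The members did not order the arrays alike. Rapamycin replicate 1 was the highest of the 10 arrays in Txnrd1 and the lowest in Prdx3, and untreated replicate 1 was the highest in Hmox1 and the lowest in Prdx2 and Txnrd1. Untreated replicate 3 was the highest in Prdx3 and Gclc, and rapamycin replicate 3 the lowest in Gclc, Gclm and Hmox1 and the highest in Prdx2. Likeness of a pair of genes was measured as the mean absolute difference of their z-scored values over the 10 arrays, where 0 means the same pattern. The most alike members were Prdx3 and Gclc, at 0.75, followed by Gclc and Hmox1, at 0.77, and the least alike were Prdx3 and Txn1, at 1.44. The subunit genes Gclc and Gclm stood at 0.84 and Txn1 and Txnrd1 at 1.23.

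**Figure D3:**
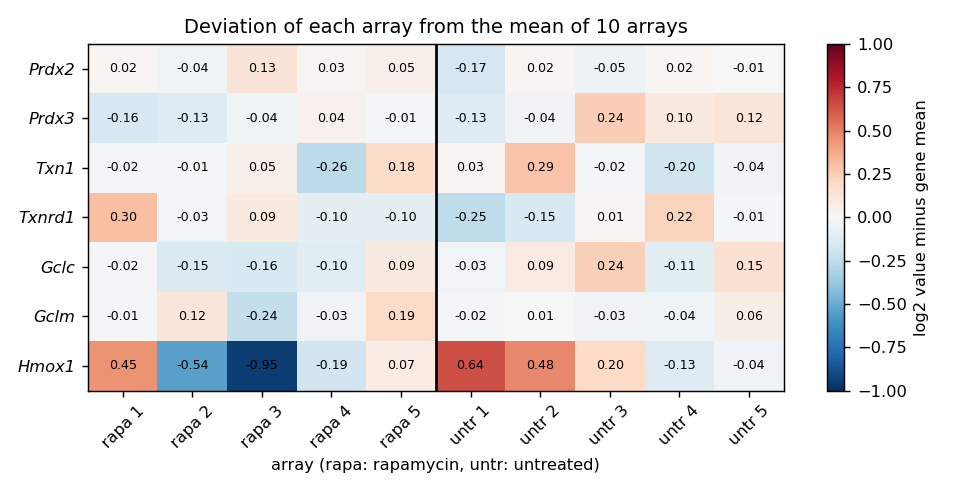
Log2 value minus the gene's mean over 10 arrays, by colour and printed in each cell, for the 7 redox genes (rows) on the rapamycin arrays, left of the line, and the untreated arrays, right of it. Hmox1 runs from -0.95 in rapamycin replicate 3 to 0.64 in untreated replicate 1, while the deviations of Prdx2 stay between -0.17 and 0.13.

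By the same measure, the nearest of 10963 other genes of above-median level was named for the 3 members of highest spread. For Hmox1 it was Pck2, which encodes the mitochondrial phosphoenolpyruvate carboxykinase, at 0.30. For Txnrd1 it was Men1, which encodes the nuclear scaffold menin, at 0.29, and for Txn1 it was Dera, which encodes a deoxyribose-phosphate aldolase, at 0.25. Pck2 moved over a much narrower range than Hmox1, with an SD of 0.12 over the 10 arrays, and none of the 3 passed the test, with log2 differences of -0.08 for Pck2, 0.21 for Men1 and 0.04 for Dera (adjusted p of 0.852, 0.676 and 0.946 in limma).

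Related genes were grouped by role into 6 lists, with 83 of 90 genes measured. In limma 0 of the 83 rose and 0 fell after adjustment, where 0.126% of all genes rose and 0.0271% fell. With no adjustment, 8 had a p under 0.05 and a higher mean, and 8 a p under 0.05 and a lower mean, where the shares of all genes were 6.13% and 3.26%. The median log2 difference was 0.02, against 0.01 over all genes, and the values ran from -0.43 to 0.37. Groups did not overlap for 1 gene in each direction, where 1.48% of all genes were higher and 0.586% lower without overlap.

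In the thioredoxin system 18 of 18 genes were measured, with a median difference of 0.06, and 3 had an unadjusted p under 0.05, all of them higher (6.13% of all genes). Prdx4, the peroxiredoxin of the endoplasmic reticulum and so of the compartment where antibodies fold, was at 10.29, 10.24, 10.44, 10.28 and 10.33 in rapamycin arrays, against 9.90, 10.19, 10.22, 10.09 and 10.26 in untreated arrays. The groups overlapped only through rapamycin replicate 2 and untreated replicate 5. The log2 difference was 0.18 (95% interval 0.02 to 0.35, adjusted p = 0.45 in limma), and Prdx4 lies on the X chromosome, beside the sex-linked differences given above. Log2 differences were 0.29 for Nxn, which encodes nucleoredoxin, and 0.23 for Txnrd2, the mitochondrial thioredoxin reductase gene, with adjusted p of 0.382 and 0.411.

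Of the glutathione genes 31 of 34 were measured, with a median difference of 0.04, and of 5 with an unadjusted p under 0.05, 2 were higher and 3 lower (6.13% and 3.26% of all genes). Chac1, whose product degrades glutathione and which is induced by the stress factor ATF4, was at 8.25, 8.20, 8.004, 7.89 and 8.69 in rapamycin arrays, against 8.84, 8.58, 8.39, 8.99 and 8.39 in untreated arrays. All rapamycin arrays other than replicate 5 were below all untreated arrays, and the log2 difference was -0.43 (SE 0.15, adjusted p = 0.324 in limma). The log2 difference was 0.25 for Gstt2, a glutathione S-transferase gene, and -0.22 for Ggt5, of the gamma-glutamyltransferase family, neither past the test (adjusted p of 0.366 and 0.416).

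Of the superoxide and peroxide genes 10 of 11 were measured. Ncf4, which encodes a regulatory subunit of the phagocyte NADPH oxidase, was at 8.65, 8.54, 8.56, 8.75 and 8.56 in rapamycin arrays, against 8.41, 8.02, 8.19, 8.20 and 8.43 in untreated arrays. The groups did not overlap, and the log2 difference of 0.36 (SE 0.09) had an adjusted p of 0.144 in limma. Sod1, the cytosolic superoxide dismutase gene, had means of 12.76 ± 0.06 with rapamycin and 12.68 ± 0.03 untreated (SD, n = 5 each), and Cyba, of the same oxidase as Ncf4, 11.94 ± 0.04 with rapamycin and 11.85 ± 0.13 untreated. Their log2 differences were 0.09 each, with adjusted p of 0.528 and 0.7 in limma. Of the same oxidase, the X-linked Cybb differed by -0.11 and Ncf1 by 0.08, with adjusted p of 0.846 and 0.907 in limma.

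Of the heme and iron genes 7 of 8 were measured. Blvra encodes biliverdin reductase A, which acts on the product of heme oxygenase. It was at 8.37, 8.21, 8.40, 8.62 and 8.02 in rapamycin arrays, against 7.80, 7.94, 8.03, 8.01 and 7.98 in untreated arrays. Rapamycin replicate 5 alone lay within the untreated range, and the log2 difference was 0.37 (SE 0.10, adjusted p = 0.2 in limma), in the direction opposite to that of Hmox1. Fth1, the ferritin heavy chain gene, differed by -0.08 and the transferrin receptor gene Tfrc, at 4.20 with rapamycin and 4.08 untreated, by 0.13. Of the genes of NADPH supply and quinone reduction 7 of 8 were measured, with log2 differences of -0.32 for Nqo2, a quinone reductase gene, and of 0.16 for both Idh2 and Idh1, the mitochondrial and cytosolic NADP-dependent isocitrate dehydrogenase genes. Their adjusted p in limma were 0.274, 0.543 and 0.647.

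The list of NRF2 control held 10 measured genes of 11, with the lowest median difference of the 6 lists, -0.11, and the 4 genes with an unadjusted p under 0.05 in limma were all lower (3.26% of all genes). Bach2, a repressor of heme oxygenase and of the plasma cell program in B cells, was at 5.76, 5.80, 5.99, 5.50 and 5.77 in rapamycin arrays, against 5.95, 6.15, 6.39, 6.09 and 6.19 in untreated arrays. Only rapamycin replicate 3 reached the untreated range, and the log2 difference was -0.39 (SE 0.10, adjusted p = 0.175 in limma). Mafg, a small MAF partner of both NRF2 and the BACH factors, was at 6.06, 6.25, 5.94, 5.89 and 6.22 in rapamycin arrays, against 6.58, 6.30, 6.34, 6.45 and 6.32 in untreated arrays. These groups did not overlap, although the log2 difference of -0.33 had an adjusted p of 0.237 in limma. Mafk, another small MAF gene, differed by -0.28 (adjusted p = 0.363). Nfe2l2, which encodes NRF2, differed by -0.21, its inhibitor gene Keap1 by 0.10 and the heme-sensing repressor gene Bach1 by 0.00, with adjusted p of 0.575, 0.847 and 1.00 in limma.

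**Figure D4:**
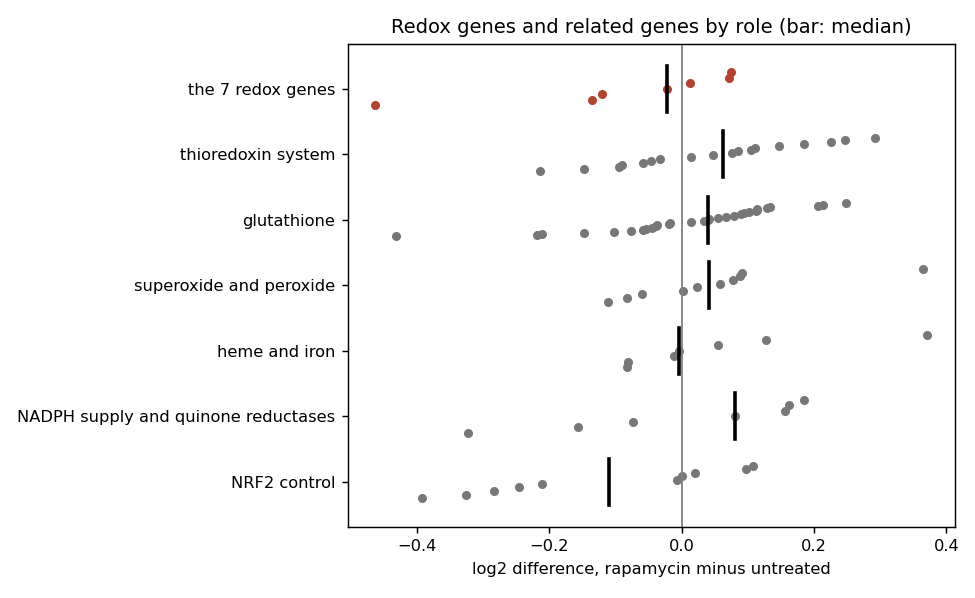
Log2 difference, rapamycin minus untreated (horizontal axis), of the 7 redox genes, top row, and of 83 related genes in 6 lists by role, with a point for each gene and a bar at the median. No point passed the test in limma, where 0.153% of all genes passed. The medians of the related lists run from -0.11 for NRF2 control to 0.08 for NADPH supply and quinone reductases.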

How the data were processed

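Values of 10 Affymetrix arrays were used, 5 rapamycin and 5 untreated, grouped and numbered by the sample titles. The deposited values are on the log2 scale, made by the authors with RMA (background correction, quantile normalization, probe summary) per the submitters' processing notes; its version was not given in the sources used here. Quantile normalization hides a shift common to all transcripts. The whole table has 41345 rows and a filtered one 12280, by a rule not given; all of the latter hold the same values (tolerance 1e-06).

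Names of probe sets came from GEO's platform annotation, with 1 symbol for 23521, several for 1820 and none for 16004. By gene ID 23328 matched RefSeq's table of assembly GRCm38.p6, which gave chromosomes and changed 0 symbols. The brightest probe set stood for a gene. Limma 3.58.1 in R 4.3.3 (lmFit, eBayes with intensity trend, two-sided, no covariate, no filter) was fitted on all 22180 genes, with Benjamini-Hochberg adjustment and calls under 0.05. The fit was tested on simulated data. Figures used matplotlib 3.10.9 in Python 3.11.15. The design text gives separate mice, so p-values measure the spread between mice; no label gives a batch. The number of arrays limits precision.

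The redox genes, the lists and the named-gene rule (all members, the 3 smallest p of each related list, the brightest member of each marker list, the nearest gene of the 3 most variable members) were chosen with earlier results of these data known. Nfe2l2, Keap1, Bach1, Sqstm1, Cybb, Ncf1, Cd68, Csf1r, Adgre1, Cx3cr1 and Car1 were named after their values were seen. Same-numbered arrays were checked for shared deviations (correlations -0.07 to 0.05 over 5 pairs) and were not taken as paired. Alternatives covered the replicate block, variance model, weights, probe set choice, filters, the filtered table, normalization, sex-linked genes, threshold and leaving out each array.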

Additional observations from a re-analysis of the deposited data

How the results depend on the processing

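In the alternatives run, 0 of the 7 redox genes and 0 of the related genes were called, also at an adjusted p under 0.1. In the authors' filtered table, which holds Hmox1 alone of the 7, its adjusted p was 0.249, the lowest of its 21 alternatives; the highest was 0.768, without rapamycin replicate 3. Hmox1, Prdx2, Prdx3, Txnrd1 and Gclc kept their direction in all alternatives run, with log2 differences of -0.63 to -0.28, 0.04 to 0.09, -0.17 to -0.07, 0.0045 to 0.14 and -0.18 to -0.09. The replicate block, variance model, probe set choice and gene filters could not change a difference and returned the main value. Only array weights, normalization and leaving out an array could turn a direction. Leaving out an array turned Txn1 (range -0.074 to 0.046) and Gclm (-0.033 to 0.074), and a second quantile normalization gave Gclm -0.0061; the cause was not tested. The median difference over the 7 genes ran from -0.07 to 0.02 when an array was left out, on both sides of 0. The count of all genes called, 28 higher and 6 lower, moved between alternatives. Xist was among the 28, and the Y-linked Eif2s3y, Kdm5d and Uty were 3 of the 6. The fit without X- and Y-linked genes leaves these out by design, and a looser threshold can only add calls. The cause of the other moves was not tested. The redox count was 0 throughout. With a lowest adjusted p of 0.524 in the main limma fit, it had little room to move. With the replicate block 14 were higher; the arrays share only a number, 1 of 5 rapamycin arrays correlated best with its own number, and the block changed no call of a redox gene. Lower calls were 12 with array weights and 13 with a second quantile normalization. Calls were 57 higher and 13 lower among above-median genes, 71 and 36 in the filtered table, 68 and 24 at an adjusted p under 0.1, and lower calls were 3 without X- and Y-linked genes. Leaving out each array gave 15 to 30 higher and 4 to 9 lower, with 15 higher both without rapamycin replicate 1 and without untreated replicate 3. The 5 arrays a group limit the precision to the intervals given for each gene.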
